A study of Homo sapiens with 6 samples.

Results

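Glycolysis and the pentose phosphate pathway are covered here by 31 genes, taken from the 17811 genes of the deposited table by matching Ensembl identifiers to 32 listed symbols. FBP1, the remaining symbol, is not analysed here. The genes encode 4 glucose transporters, 9 enzymes of the preparatory steps, 4 regulators of fructose 2,6-bisphosphate, 5 enzymes of the payoff steps, 2 lactate dehydrogenases, 1 phosphoglucomutase and 6 pentose phosphate enzymes. Poly(A) RNA was sequenced from 22RV1, an established line of human prostate carcinoma cells cultured in RPMI-1640 with fetal bovine serum. One group stably expressed shIMPDH2, a hairpin against the enzyme that commits IMP to guanine nucleotide synthesis. A further group expressed shIMPA1, against an inositol monophosphatase, and the control group expressed shLuc, a hairpin named for luciferase. Each group had 2 libraries, and no group was without a hairpin. The labels do not say whether the 2 libraries came from separate cultures or separate stable lines, nor which hairpin sequence was used. The p-values thus describe the spread among these libraries alone, which may be technical. As the labels do not separate lines or hairpin sequences within a group, off-target effects and features of a line cannot be told apart from the effect on the target.

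Glycolysis takes up glucose, traps it as glucose 6-phosphate and splits it into trioses, which are oxidised to pyruvate with a gain of ATP and NADH. Lactate dehydrogenase converts pyruvate to lactate and regenerates NAD+. The pentose phosphate pathway branches off at glucose 6-phosphate and makes NADPH and ribose 5-phosphate, the sugar of nucleotides. Prostate luminal cells are known for secreting citrate rather than oxidising it fully, and prostate cancers differ from many other carcinomas in often showing low glucose uptake until late in the disease.

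Between 20828900 and 27773294 reads per library fell in the listed genes, and values are normalized reads, which are read counts divided by 1 size factor per library. IMPDH2 had 2932 and 3166 normalized reads in shIMPDH2, 4435 and 5055 in shIMPA1 and 4269.9 and 5032 in shLuc. IMPA1 had 1795 and 1842 normalized reads in shIMPDH2, 957 and 1101 in shIMPA1 and 1621 and 1331 in shLuc. Each targeted gene was thus lower in both libraries of its own hairpin than in both shLuc libraries. All 11 luminal prostate markers were listed, with sums of 115479 to 120006 in shIMPDH2, 105553 to 108432 in shIMPA1 and 133438 to 134602 in shLuc. Their sum is led by KRT8, which fell in shIMPDH2, whereas of the 11 markers 5 rose and 2 fell there. In shIMPA1, 2 rose and 3 fell, and the median log2 fold changes were 0.17 in shIMPDH2 and 0.04 in shIMPA1. Among all genes, 7.86% rose and 9.15% fell in shIMPDH2, and 14.0% rose and 16.2% fell in shIMPA1. Of 4 basal markers 3 were listed (KRT5, KRT14 and KRT15, but not TP63), with sums of 185 to 198 in shIMPDH2, 12.6 to 170 in shIMPA1 and 0.900 to 6.13 in shLuc. Of 8 stromal markers 5 were listed, with sums of 277 to 281 in shIMPDH2, 313 to 440 in shIMPA1 and 585 to 623 in shLuc, and none of 7 blood and endothelial markers was listed. Of 5 genes typical of mesenchymal cell lines 4 were listed, with sums of 404 to 424 in shIMPDH2, 310 to 452 in shIMPA1 and 978 to 1107 in shLuc. Of these 4 genes, 1 rose and 3 fell in each knockdown. The part of these differences in the results below was not tested. The shIMPA1 libraries differed most from each other, by over 2-fold for 934 genes, against 398 in shIMPDH2 and 266 in shLuc.

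In shIMPDH2 cells PFKP, which encodes a phosphofructokinase, fell, the glucose carrier gene SLC2A1 and both hexokinase genes rose, and the lactate dehydrogenases were not called. In shIMPA1 cells both lactate dehydrogenases, GAPDH, PFKP and the transketolase gene TKT fell while SLC2A1 and HK2 rose. In shIMPDH2 against shLuc, 5 of 31 genes rose and 5 fell at a limma adjusted p under 0.05. That is 32.3% of the 31 genes, against 17.0% of all 17742 genes tested, of which 7.86% rose and 9.15% fell. In shIMPA1 against shLuc, 3 rose and 12 fell. The 15 called genes are 48.4% of the 31, against 30.2% of all genes. The 12 that fell are 38.7% of the 31, against 16.2% of all genes, and the 3 that rose are 9.68%, against 14.0%. In shIMPDH2 against shIMPA1, 11 were higher and 1 was lower, or 38.7% in all, against 26.1% of all genes called. The 11 higher genes are 35.5% of the 31, against 13.5% of all genes, and the lower gene, SLC2A3, is 3.23%, against 12.6%. SLC2A3, with 2 reads in shIMPDH2, passed the filter on low values through the other groups alone, and without it 4 genes fell in shIMPDH2 and none was lower between the knockdowns. Both knockdowns share the shLuc libraries, so their differences from shLuc are not independent. With 2 libraries a group, lack of overlap was common, and held for 66.2% of all genes in shIMPDH2 against shLuc, 66.4% in shIMPA1 against shLuc and 63.9% between the knockdowns.

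The median log2 fold change of the 31 genes was -0.02 in shIMPDH2 against shLuc, where that of all genes was -0.01. It was -0.25 in shIMPA1 against shLuc, where that of all genes was 0.02. Between shIMPDH2 and shIMPA1 it was 0.27, where that of all genes was 0.00 to 2 decimals. Leaving out each of the 4 libraries of a comparison in turn, which also gives the ranges of log2 fold change quoted beside lost calls, kept 1 of the 10 calls in shIMPDH2 (PFKP), 8 of the 15 in shIMPA1 (SLC2A1, SLC2A10, HK2, PFKP, ALDOC, LDHA, LDHB and TKT) and 4 of the 12 between the knockdowns (SLC2A3, SLC2A10, HK1 and LDHA). In shIMPDH2 the counts of genes that rose were 1 and 0 without replicate 1 or 2 of shIMPDH2 and 0 and 2 without replicate 1 or 2 of shLuc. The counts that fell were 2, 1, 1 and 1 in the same 4 fits. In shIMPA1, 6 genes rose without shIMPA1 replicate 1, and 6 fell without shLuc replicate 2. Between the knockdowns, 4 and 3 genes were higher without shIMPDH2 replicate 1 or 2, and 3 and 2 were lower without shIMPA1 replicate 1 or 2. Calls gained without shIMPA1 replicate 1 were those of SLC2A12, PFKL, TIGAR, PGM1, PGLS and PGD in shIMPA1 and of GPI, PFKL, PFKFB3, PKM and PGM1 between the knockdowns. Without shIMPA1 replicate 2, SLC2A12 and PFKFB3 were gained between the knockdowns. The number of all genes called also changed when a library was left out, so these gains and losses are not particular to the 31 genes. SLC2A3, kept between the knockdowns, had 2 reads in shIMPDH2 and passed the filter on low values through the other groups alone. Its kept call is therefore a description and not support. A fit with no mean-variance trend ended 6 of the calls in shIMPDH2 (SLC2A10, HK2, ALDOC, PFKFB2, PFKFB3 and RPIA, limma adjusted p from 0.0542 to 0.100). It ended 4 in shIMPA1 (GPI, PFKFB2, PGAM1 and PKM, 0.0622 to 0.0997) and 5 between the knockdowns (ALDOC, PFKFB4, TIGAR, PGAM1 and PGD, 0.0568 to 0.0976). Over all genes, that fit called 1727 in shIMPDH2, 3508 in shIMPA1 and 2909 between the knockdowns. With the trend these counts were 3018, 5361 and 4627.

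**Figure D1:**
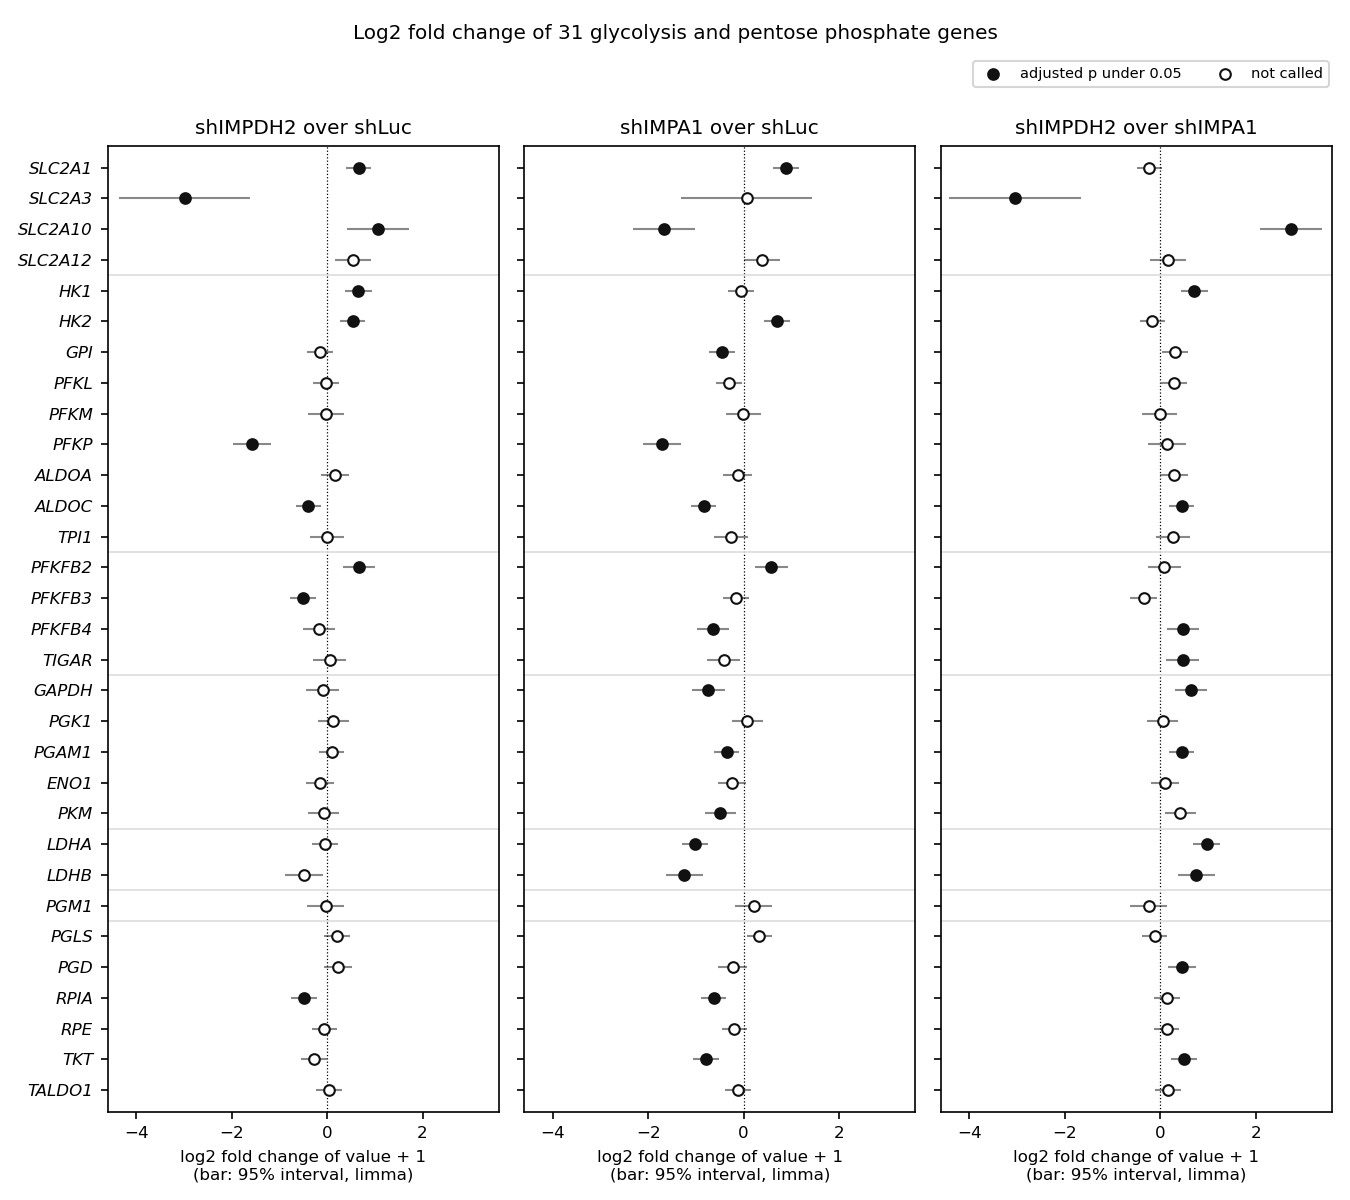
Log2 fold change of value + 1 for each of the 31 genes (rows, ordered by role) in shIMPDH2 over shLuc, shIMPA1 over shLuc and shIMPDH2 over shIMPA1. Points are limma estimates and bars their 95% intervals, filled where the adjusted p was under 0.05. PFKP lies far to the left in both comparisons with shLuc, LDHA (-1.01) and LDHB (-1.24) do so in shIMPA1, and the SLC2A3 estimates rest on 2 reads in shIMPDH2.

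Together the 31 genes took 1.12% and 1.16% of reads in shIMPDH2, 0.921% and 0.869% in shIMPA1 and 1.23% and 1.26% in shLuc. Both knockdowns lay below shLuc, and shIMPA1 lay below shIMPDH2, without overlap. The 9 preparatory enzymes took 0.353% and 0.364% in shIMPDH2, 0.319% and 0.306% in shIMPA1 and 0.351% and 0.353% in shLuc. In that role shIMPDH2 overlapped shLuc. The lactate dehydrogenases took 0.240% and 0.265% in shIMPDH2, 0.167% and 0.137% in shIMPA1 and 0.348% and 0.325% in shLuc, without overlap. Most of their reads were from LDHB, which was not called in shIMPDH2, and LDHA there overlapped shLuc. Of the roles, the lactate dehydrogenases fell most in shIMPDH2, so the fall of the whole sum there was not shared by all roles. The 5 payoff enzymes took 0.412% and 0.419% in shIMPDH2, 0.335% and 0.325% in shIMPA1 and 0.418% and 0.457% in shLuc, so that shIMPDH2 overlapped shLuc and shIMPA1 lay below both. Glucose transporters took more in both knockdowns than in shLuc, with 0.0155% and 0.0150% in shIMPDH2, 0.0134% and 0.0177% in shIMPA1 and 0.00982% and 0.0108% in shLuc. SLC2A12, which was not called in either knockdown and whose exons overlap those of TBPL1, was the largest term of this sum in all 6 libraries. In bulk RNA, fewer cells of a type and less RNA of a gene per cell cannot be told apart. No test was made on these sums, and an exact permutation test of 2 against 2 libraries cannot go below p = 0.333.

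**Figure D2:**
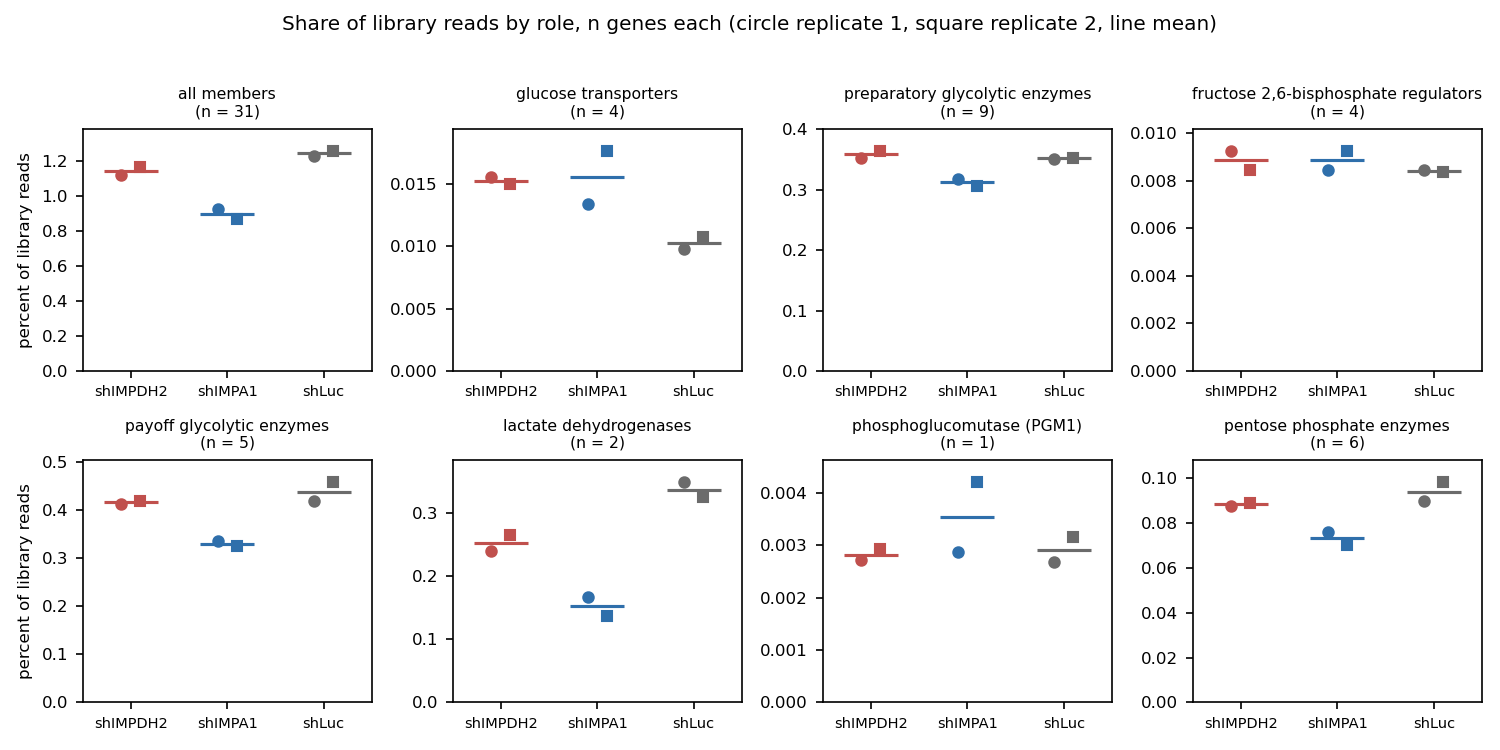
Percent of the reads of each library (y axis, starting at 0) that fell in all 31 genes and in each role, for shIMPDH2, shIMPA1 and shLuc. Circles are replicate 1, squares replicate 2 and lines the mean of the 2 libraries. The lactate dehydrogenase sums fall in 3 separate levels, with shIMPA1 at 0.167% and 0.137%.

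Per kilobase of exon, LDHB, TPI1 and GAPDH were the 3 highest of the 31 genes in every group. In normalized reads per kilobase, LDHB averaged 16718 ± 1925 in shIMPDH2, 9925 ± 1555 in shIMPA1 and 23332 ± 1857 in shLuc (SD, n = 2 each). TPI1, which interconverts the 2 triose phosphates, averaged 18910.4 ± 1778 in shIMPDH2, 15699 ± 1047 in shIMPA1 and 18885 ± 1284 in shLuc on the same scale. The order of these top 2 differed between groups, with TPI1 first in both knockdowns and LDHB first in shLuc, although in shIMPDH2 they differed by little more than their SD. With the longest transcript as gene length, LDHB averaged 32425 in shIMPDH2, 19249 in shIMPA1 and 45254 in shLuc and was first in shIMPDH2 as well, so levels per kilobase depend on the length chosen. Per kilobase of exon, the next 3 places were held by ENO1, PKM and ALDOA in each group. With the longest transcript, LDHA ranked above ALDOA in shLuc. SLC2A10 and SLC2A3 were the lowest of the 31 in every group. Per kilobase of exon, SLC2A3 averaged 0.188 ± 0.265 in shIMPDH2, 2.29 ± 0.266 in shIMPA1 and 2.24 ± 0.758 in shLuc.

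**Figure D3:**
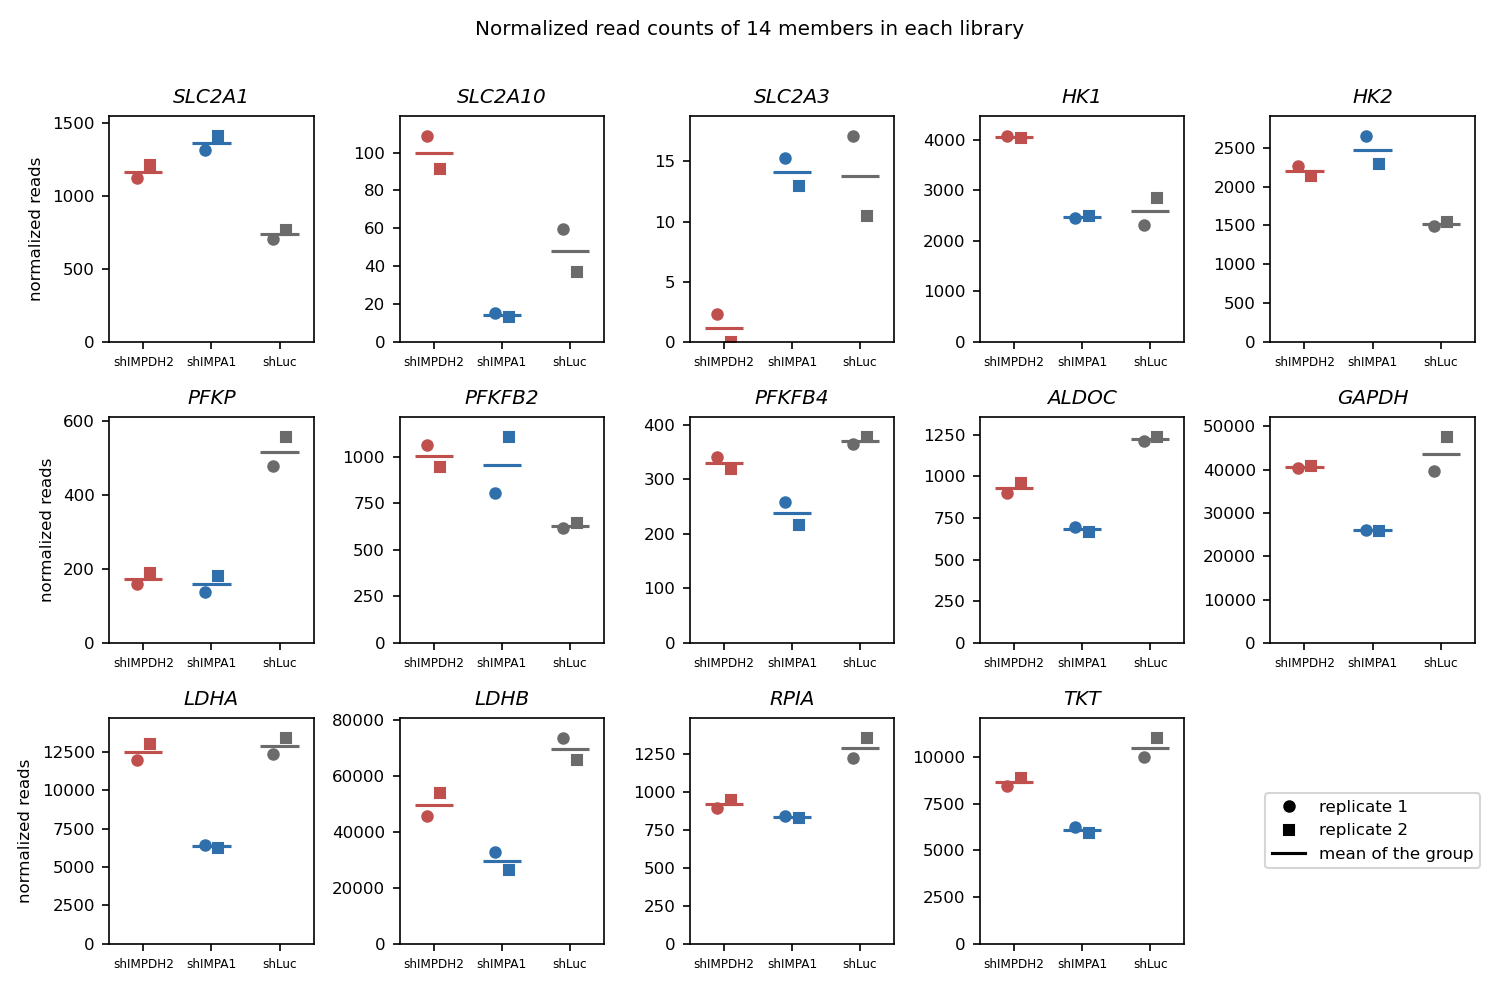
Normalized reads (y axis, starting at 0) in each library for the 14 genes called in at least 1 comparison with an absolute log2 fold change of at least 0.58 there and no overlap between the groups. Circles are replicate 1, squares replicate 2 and lines the mean of the group. The 4 knockdown libraries lie below the shLuc libraries for PFKP, PFKFB4, ALDOC, LDHB, RPIA and TKT and above them for SLC2A1, HK2 and PFKFB2.

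Promoters of 5 of the 15 genes called in shIMPA1 are shown as examples with and without a match to the motif below, and they were chosen with their values known. Of these, LDHA, LDHB and ALDOC fell and HK2 and SLC2A1 rose. They are RefSeq windows on GRCh38.p14 from 250 bases before to 50 bases after the transcription start nearest the GENCODE 5′ end, written in the direction of the gene. The windows are LDHA at chr11:18394313-18394612, plus strand, ALDOC at chr17:28576846-28577145, minus strand, LDHB at chr12:21657793-21658092, minus strand, HK2 at chr2:74833877-74834176, plus strand and SLC2A1 at chr1:42958819-42959118, minus strand. Capitals mark ACGTG on either strand (read as CACGT on the other strand), the core letters of the hypoxia response element, which also lie inside the palindrome CACGTG bound by MYC and carbohydrate response factors.
LDHA: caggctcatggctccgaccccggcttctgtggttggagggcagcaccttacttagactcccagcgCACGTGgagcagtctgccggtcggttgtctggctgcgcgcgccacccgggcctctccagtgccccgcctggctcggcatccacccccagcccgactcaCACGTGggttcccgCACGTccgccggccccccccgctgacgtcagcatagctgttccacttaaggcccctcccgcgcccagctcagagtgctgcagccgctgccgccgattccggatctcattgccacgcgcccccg
ALDOC: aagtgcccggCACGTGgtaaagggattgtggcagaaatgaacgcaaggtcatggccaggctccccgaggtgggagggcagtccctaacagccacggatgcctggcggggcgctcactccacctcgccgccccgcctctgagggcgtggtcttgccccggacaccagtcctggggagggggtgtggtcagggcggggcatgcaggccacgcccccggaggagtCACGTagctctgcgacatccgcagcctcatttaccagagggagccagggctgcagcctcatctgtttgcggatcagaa
LDHB: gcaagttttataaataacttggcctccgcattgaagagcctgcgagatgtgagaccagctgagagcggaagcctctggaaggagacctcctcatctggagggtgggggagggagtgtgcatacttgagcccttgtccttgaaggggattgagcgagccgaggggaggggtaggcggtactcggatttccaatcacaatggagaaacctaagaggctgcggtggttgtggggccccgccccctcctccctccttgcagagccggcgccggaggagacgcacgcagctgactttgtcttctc
HK2: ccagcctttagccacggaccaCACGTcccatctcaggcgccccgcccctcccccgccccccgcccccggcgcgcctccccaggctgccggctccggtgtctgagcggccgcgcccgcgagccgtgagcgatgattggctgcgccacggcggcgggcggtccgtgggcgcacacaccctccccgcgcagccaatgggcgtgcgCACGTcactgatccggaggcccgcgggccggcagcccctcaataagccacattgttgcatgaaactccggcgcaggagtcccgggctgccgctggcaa
SLC2A1: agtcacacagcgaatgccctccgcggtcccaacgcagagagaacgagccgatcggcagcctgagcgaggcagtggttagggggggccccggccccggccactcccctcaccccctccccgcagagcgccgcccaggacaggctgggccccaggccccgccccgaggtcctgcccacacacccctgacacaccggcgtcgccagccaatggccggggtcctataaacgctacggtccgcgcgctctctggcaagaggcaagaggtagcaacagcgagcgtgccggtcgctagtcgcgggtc
The LDHA window held 5 matches of ACGTG on both strands, 4 of them in 2 copies of CACGTG. The ALDOC window held 3 and the HK2 window 2, and those of LDHB and SLC2A1 held none. A window was matched for 29 of the 31 genes, all but SLC2A3 and PFKFB2. Only 1 window per gene was read, although some genes had more, such as PFKM and HK1 with 7 each. The chosen start can lie far from the GENCODE 5′ end. That end is at chr12:21757857 for LDHB and at chrX:77910739 for PGK1, whose window begins at chrX:78103998. Which start these cells use was not tested. Of the 29 windows read, 11 (37.9%) held ACGTG, against 21.4% of 35116 RefSeq promoter windows. CACGTG was held by 3 (LDHA, ALDOC and GAPDH), against 7.26% of the RefSeq windows. The 35116 windows include more than 1 for some genes, so these shares are not on the same basis. Of the 11 genes with ACGTG, LDHA, ALDOC, GAPDH, GPI and SLC2A10 fell in shIMPA1, HK2 rose there, and PGK1, ALDOA, PFKM, TIGAR and PGD were not called in shIMPA1 against shLuc. Of the 18 genes with a window but no ACGTG, 7 fell in shIMPA1 (PFKP, PFKFB4, PGAM1, PKM, LDHB, RPIA and TKT), 1 rose (SLC2A1) and 10 were not called. Among all genes, 16.2% fell and 14.0% rose in shIMPA1. A match describes the letters of a window and is not evidence of binding.

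Of the 4 glucose transporter genes, 2 rose and 1 fell in shIMPDH2, and 1 rose and 1 fell in shIMPA1. The gene that fell in shIMPDH2 was SLC2A3, with 2 reads there, which passed the filter on low values through the other groups alone. Without SLC2A3 no transporter gene fell in shIMPDH2. Among all genes, 7.86% rose and 9.15% fell in shIMPDH2, and 14.0% rose and 16.2% fell in shIMPA1. SLC2A1 (ENSG00000117394, GRCh38 chr1:42925375-42959176, minus strand) encodes GLUT1, the carrier of basal glucose uptake in many cells, and had 1121 and 1211 normalized reads in shIMPDH2, 1316 and 1409 in shIMPA1 and 706 and 766 in shLuc. All 4 knockdown libraries lay above both shLuc libraries. It rose in shIMPDH2 (log2 fold change of 0.66 with SE 0.12, adjusted p = 0.00400 in limma) and in shIMPA1 (log2 fold change of 0.89 with SE 0.12, adjusted p = 0.000435 in limma), and between the knockdowns it was not called (log2 fold change of -0.22, adjusted p = 0.193 in limma). SLC2A10 (ENSG00000197496, GRCh38 chr20:46709487-46736347, plus strand) encodes GLUT10, a transporter also linked to dehydroascorbate, and had 109 and 91.1 normalized reads in shIMPDH2, 15.3 and 12.9 in shIMPA1 and 59.4 and 36.8 in shLuc. Its 3 groups did not overlap, with shIMPDH2 highest and shIMPA1 lowest. It fell in shIMPA1 (log2 fold change of -1.67 with SE 0.30, adjusted p = 0.00196 in limma), rose in shIMPDH2 (log2 fold change of 1.07 with SE 0.30, adjusted p = 0.0300 in limma) and was higher in shIMPDH2 than in shIMPA1 (log2 fold change of 2.74 with SE 0.30, adjusted p = 0.000121 in limma).

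SLC2A3 (ENSG00000059804, GRCh38 chr12:7919230-7936275, minus strand), the high-affinity carrier GLUT3, was at the edge of detection, with 2 and 0 reads in shIMPDH2, 17 and 15 in shIMPA1 and 19 and 12 in shLuc. The shIMPDH2 libraries lay below the other 4, which overlapped one another. Ratios were taken of the summed reads of a group divided by its summed size factors, with shIMPDH2 as the denominator. On this measure shLuc over shIMPDH2 was 12.1 (95% interval 3.07 to 104) and shIMPA1 over shIMPDH2 was 12.4 (3.15 to 106). The intervals cover counting error only. The limma test called it lower in shIMPDH2 than in shLuc (adjusted p = 0.00893) and than in shIMPA1 (adjusted p = 0.00546). As it passed the filter only through the groups where it was higher, these calls are given as a description, and DESeq2 gave no adjusted p for it in shIMPDH2 against shLuc. With no filter on low values limma called it in both comparisons too. That fit rested on the same 2 and 0 reads in shIMPDH2 and so adds no support. SLC2A12 (GLUT12) had 2504 and 2487 normalized reads in shIMPDH2, 1808 and 2770.4 in shIMPA1 and 1639 and 1804 in shLuc and was not called in shIMPDH2 (log2 fold change of 0.54, adjusted p = 0.0557 in limma) or shIMPA1 (log2 fold change of 0.38, adjusted p = 0.122 in limma). Its exons overlap those of TBPL1 on the opposite strand, and whether strand was used in counting is not given in the sources used here.

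Leaving out 1 library ended several of the shIMPDH2 calls on transporters. SLC2A1 in shIMPDH2 lost its call without shIMPDH2 replicate 2 or shLuc replicate 1 (range of log2 fold changes 0.60 to 0.72, limma adjusted p up to 0.0795). SLC2A10 lost it in shIMPDH2 without any 1 of the 4 libraries (range of log2 fold changes 0.73 to 1.41, limma adjusted p up to 0.260). SLC2A3 lost its call against shLuc without shIMPDH2 replicate 2, shLuc replicate 1 or shLuc replicate 2 (range of log2 fold changes -3.85 to -2.12, limma adjusted p up to 0.121). SLC2A12 was called in shIMPDH2 with only the 2 groups compared (limma adjusted p = 4.66e-06) or by DESeq2 (adjusted p = 0.0437). The fit with only the 2 groups called 6382 of 17505 genes, against 3018 of 17742 in the main fit, and DESeq2 called 15.1% of all genes. In shIMPA1 without shIMPA1 replicate 1 the log2 fold change of SLC2A12 was 0.69.

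The hexokinases, HK1 and HK2, phosphorylate glucose as it enters the cell, and HK1 rose in shIMPDH2 while HK2 rose in both knockdowns. HK1 (ENSG00000156515, GRCh38 chr10:69269984-69401884, plus strand) had 4074 and 4042 normalized reads in shIMPDH2, 2455 and 2501 in shIMPA1 and 2318 and 2852 in shLuc. Both shIMPDH2 libraries lay above the other 4, and shIMPA1 fell within the range of shLuc. HK1 rose in shIMPDH2 (log2 fold change of 0.66 with SE 0.13, adjusted p = 0.00563 in limma) and was higher there than in shIMPA1 (log2 fold change of 0.71 with SE 0.13, adjusted p = 0.00259 in limma), and its log2 fold change in shIMPA1 against shLuc was -0.05 (adjusted p = 0.786 in limma). HK2 (ENSG00000159399, GRCh38 chr2:74833981-74893359, plus strand), the inducible isozyme of many tumours, had 2269 and 2132 normalized reads in shIMPDH2, 2650.4 and 2288 in shIMPA1 and 1490.5 and 1549 in shLuc. All 4 knockdown libraries exceeded both shLuc libraries. HK2 rose in shIMPA1 (log2 fold change of 0.70 with SE 0.12, adjusted p = 0.00176 in limma) and in shIMPDH2 (log2 fold change of 0.53 with SE 0.12, adjusted p = 0.0128 in limma), and between the knockdowns its log2 fold change was -0.16 (adjusted p = 0.348 in limma). Per kilobase of exon, HK2 made up 36.6% and 35.4% of the HK1 and HK2 sum in shIMPDH2, 52.9% and 48.7% in shIMPA1 and 40.0% and 36.1% in shLuc. The HK2 share was thus highest in both shIMPA1 libraries, with no test. The shIMPDH2 call of HK2 was lost without any 1 of the 4 libraries (range of log2 fold changes 0.49 to 0.58, limma adjusted p up to 0.128), and that of HK1 against shLuc without either shIMPDH2 library or shLuc replicate 1 (range of log2 fold changes 0.51 to 0.81, limma adjusted p up to 0.0916).

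Phosphofructokinase makes fructose 1,6-bisphosphate, the committed step of glycolysis, and its platelet-type gene PFKP fell in both knockdowns. PFKP (ENSG00000067057, GRCh38 chr10:3066333-3137712, plus strand) had 159 and 188 normalized reads in shIMPDH2, 136 and 180.3 in shIMPA1 and 477 and 555 in shLuc. All 4 knockdown libraries lay far below both shLuc libraries, and the knockdowns overlapped each other. PFKP fell in shIMPDH2 (log2 fold change of -1.57 with SE 0.18, adjusted p = 0.000273 in limma) and in shIMPA1 (log2 fold change of -1.71 with SE 0.18, adjusted p = 8.94e-05 in limma), with 0.14 (adjusted p = 0.603 in limma) between the knockdowns. The liver-type gene PFKL had 5836 and 6031 normalized reads in shIMPDH2, 5269 and 4508 in shIMPA1 and 5963 and 6041 in shLuc, and the muscle-type gene PFKM had 5569 and 5949.6 normalized reads in shIMPDH2, 4834 and 6999 in shIMPA1 and 5441 and 6287 in shLuc. Neither was called in any of the 3 comparisons. PFKP made up 4.80% and 5.44% of the PFKP and PFKL sum per kilobase in shIMPDH2, 4.56% and 6.88% in shIMPA1 and 12.9% and 14.5% in shLuc. PFKM made up 53.8% and 54.6% of the PFKM and PFKL sum in shIMPDH2, 52.8% and 65.4% in shIMPA1 and 52.7% and 55.9% in shLuc. PFKP was therefore the minor isozyme in all 6 libraries, below PFKL and PFKM.

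Of the other preparatory enzymes, ALDOC fell in both knockdowns and GPI fell in shIMPA1. ALDOC (ENSG00000109107, GRCh38 chr17:28573115-28577264, minus strand), the brain-type aldolase that splits fructose 1,6-bisphosphate, had 901 and 962 normalized reads in shIMPDH2, 698 and 668 in shIMPA1 and 1211 and 1235 in shLuc. Its 3 groups did not overlap, with shLuc highest and shIMPA1 lowest. It fell in shIMPA1 (log2 fold change of -0.84 with SE 0.12, adjusted p = 0.000526 in limma) and in shIMPDH2 (log2 fold change of -0.39 with SE 0.12, adjusted p = 0.0421 in limma) and was higher in shIMPDH2 than in shIMPA1 (log2 fold change of 0.45 with SE 0.12, adjusted p = 0.0180 in limma). ALDOA, the more abundant aldolase, had 13098 and 13322 normalized reads in shIMPDH2, 10234 and 11478 in shIMPA1 and 10933 and 12763 in shLuc and was not called in any comparison. Per kilobase, ALDOC took 8.43% and 8.80% of the aldolase pair in shIMPDH2, 8.36% and 7.22% in shIMPA1 and 12.9% and 11.5% in shLuc. GPI, which converts glucose 6-phosphate to fructose 6-phosphate, had 5254 and 4899 normalized reads in shIMPDH2, 4281 and 3895 in shIMPA1 and 5334 and 5915 in shLuc and fell in shIMPA1 (log2 fold change of -0.46 with SE 0.12, adjusted p = 0.0161 in limma). TPI1 had 47664 and 54452 normalized reads in shIMPDH2, 44387 and 40389 in shIMPA1 and 53440.3 and 48538 in shLuc and was not called.

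Among these, the shIMPDH2 call of ALDOC was lost without any 1 of the 4 libraries (range of log2 fold changes -0.44 to -0.35, limma adjusted p up to 0.253). Its call between the knockdowns was lost without either shIMPDH2 library (range of log2 fold changes 0.40 to 0.49, limma adjusted p up to 0.165). The GPI call was lost without either shLuc library (range of log2 fold changes -0.53 to -0.39, limma adjusted p up to 0.133).

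**Figure D4:**
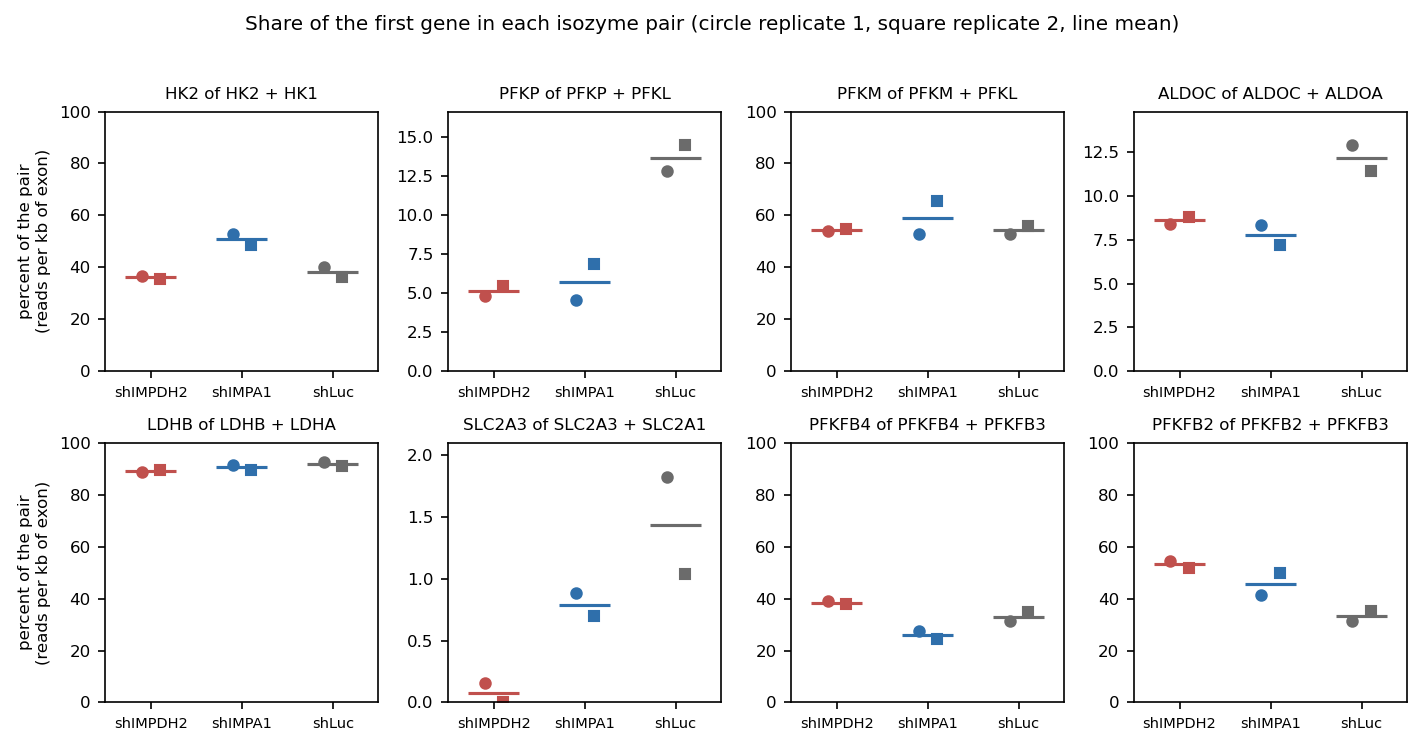
Share of the first-named gene in each of 8 isozyme pairs (y axis, percent of the pair in normalized reads per kilobase of exon), for shIMPDH2, shIMPA1 and shLuc. Circles are replicate 1, squares replicate 2 and lines the mean, and the y axes differ in range. PFKP holds 12.9% and 14.5% of its pair in shLuc and at most 6.88% in a knockdown library, and HK2 holds its largest share in shIMPA1.

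Fructose 2,6-bisphosphate is the strongest activator of phosphofructokinase, and 4 genes that make or remove it gave calls in both directions. PFKFB2 (ENSG00000123836, GRCh38 chr1:207034366-207081024, plus strand), a bifunctional kinase and phosphatase, had 1067 and 945 normalized reads in shIMPDH2, 807 and 1106 in shIMPA1 and 617 and 644 in shLuc. Both knockdowns lay above shLuc, and the shIMPA1 libraries enclosed the shIMPDH2 range. PFKFB2 rose in shIMPDH2 (log2 fold change of 0.67 with SE 0.16, adjusted p = 0.0144 in limma) and in shIMPA1 (log2 fold change of 0.58 with SE 0.16, adjusted p = 0.0167 in limma). PFKFB3, the isozyme with high kinase activity, had 531 and 526 normalized reads in shIMPDH2, 684 and 665 in shIMPA1 and 804 and 704 in shLuc. It fell in shIMPDH2 (log2 fold change of -0.51 with SE 0.13, adjusted p = 0.0198 in limma) and was not called in shIMPA1 (log2 fold change of -0.16, adjusted p = 0.379 in limma). PFKFB4 (ENSG00000114268, GRCh38 chr3:48517684-48562015, minus strand) had 341 and 319 normalized reads in shIMPDH2, 259 and 217 in shIMPA1 and 365 and 377 in shLuc. Both shIMPA1 libraries lay below the other 4, and PFKFB4 was lower in shIMPA1 than in shLuc (log2 fold change of -0.64 with SE 0.15, adjusted p = 0.00849 in limma) and higher in shIMPDH2 than in shIMPA1 (log2 fold change of 0.48 with SE 0.15, adjusted p = 0.0380 in limma). TIGAR, a p53-induced phosphatase of fructose 2,6-bisphosphate, had 289.96 and 349 normalized reads in shIMPDH2, 245 and 214 in shIMPA1 and 305 and 306 in shLuc and was higher in shIMPDH2 than in shIMPA1 (log2 fold change of 0.47 with SE 0.16, adjusted p = 0.0461 in limma).

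Per kilobase, PFKFB2 made up 54.6% and 51.8% of the PFKFB2 and PFKFB3 sum in shIMPDH2, 41.4% and 49.9% in shIMPA1 and 31.5% and 35.4% in shLuc. PFKFB4 made up 39.1% and 37.8% of the PFKFB4 and PFKFB3 sum in shIMPDH2, 27.5% and 24.6% in shIMPA1 and 31.2% and 34.9% in shLuc. The 3 groups did not overlap in either share. The exons of PFKFB2 overlap those of YOD1 on the opposite strand, and YOD1 had log2 fold changes of 0.05 (adjusted p = 0.808 in limma) in shIMPDH2 and -0.58 (adjusted p = 0.00411 in limma) in shIMPA1 against shLuc. No call on these 4 genes held in every leave-one-out fit. PFKFB2 lost its call without any 1 of the 4 libraries in shIMPDH2 (range of log2 fold changes 0.58 to 0.76, limma adjusted p up to 0.145) and without either shLuc library in shIMPA1 (range of log2 fold changes 0.36 to 0.81, limma adjusted p up to 0.122). PFKFB3 lost its shIMPDH2 call without any 1 of the 4 libraries (range of log2 fold changes -0.60 to -0.41, limma adjusted p up to 0.200). PFKFB4 lost its shIMPA1 call without either shLuc library (range of log2 fold changes -0.77 to -0.51, limma adjusted p up to 0.0831). Between the knockdowns, PFKFB4 and TIGAR lost theirs without either shIMPDH2 library or shIMPA1 replicate 2 (PFKFB4 range of log2 fold changes 0.35 to 0.61, limma adjusted p up to 0.205, TIGAR range of log2 fold changes 0.34 to 0.60, limma adjusted p up to 0.325). With only the 2 groups compared, PFKFB4 (limma adjusted p = 0.0809) and TIGAR (limma adjusted p = 0.0923) were likewise not called between the knockdowns, nor were they by DESeq2 (adjusted p = 0.0633 for PFKFB4 and 0.0724 for TIGAR).

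In the payoff steps, which turn trioses into pyruvate, 3 of 5 enzyme genes fell in shIMPA1, against 16.2% of all genes. None of the 5 was called in shIMPDH2 against shLuc, where 17.0% of all genes were called. GAPDH (ENSG00000111640, GRCh38 chr12:6533927-6538374, plus strand), which oxidises glyceraldehyde 3-phosphate, had 40460.2 and 40899.6 normalized reads in shIMPDH2, 26155 and 25805 in shIMPA1 and 39602 and 47448 in shLuc. Both shIMPA1 libraries lay below the other 4, and the shLuc libraries were the furthest apart. GAPDH fell in shIMPA1 (log2 fold change of -0.74 with SE 0.16, adjusted p = 0.00519 in limma) and was higher in shIMPDH2 than in shIMPA1 (log2 fold change of 0.65 with SE 0.16, adjusted p = 0.0120 in limma). PGAM1, which moves the phosphate of phosphoglycerate, had 4927 and 5142 normalized reads in shIMPDH2, 3749.9 and 3603 in shIMPA1 and 4456 and 4977 in shLuc. It fell in shIMPA1 (log2 fold change of -0.36 with SE 0.12, adjusted p = 0.0408 in limma) and was higher in shIMPDH2 than in shIMPA1 (log2 fold change of 0.45 with SE 0.12, adjusted p = 0.0170 in limma). PKM, the pyruvate kinase gene, had 24890.2 and 28041 normalized reads in shIMPDH2, 21399.8 and 18239 in shIMPA1 and 28212 and 27222 in shLuc. It fell in shIMPA1 (log2 fold change of -0.49 with SE 0.15, adjusted p = 0.0304 in limma), and its log2 fold change between shIMPDH2 and shIMPA1 was 0.42 (adjusted p = 0.0604 in limma). PGK1, which makes ATP from bisphosphoglycerate, had 11242 and 12013 normalized reads in shIMPDH2, 9810.01 and 12774 in shIMPA1 and 10575 and 10655 in shLuc. ENO1, the enolase, had 17659.7 and 19564 normalized reads in shIMPDH2, 17629 and 16956 in shIMPA1 and 20304 and 20772 in shLuc. Neither PGK1 nor ENO1 was called in any comparison.

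The GAPDH call in shIMPA1 was lost without shLuc replicate 2 (range of log2 fold changes -0.87 to -0.61, limma adjusted p up to 0.0584), and that between the knockdowns without either shIMPDH2 library (range of log2 fold changes 0.64 to 0.66, limma adjusted p up to 0.101). PGAM1 and PKM lost their calls in shIMPA1 without shIMPA1 replicate 2 or either shLuc library (PGAM1 range of log2 fold changes -0.44 to -0.28, limma adjusted p up to 0.243, PKM range of log2 fold changes -0.60 to -0.37, limma adjusted p up to 0.142) and with only the 2 groups compared (limma adjusted p = 0.0864 and 0.0604). PGAM1 also lost its call between the knockdowns without either shIMPDH2 library (range of log2 fold changes 0.42 to 0.48, limma adjusted p up to 0.151). PKM was called between the knockdowns by edgeR (adjusted p = 0.0486, with 25.7% of all genes called) and DESeq2 (adjusted p = 0.0183, with 22.4% called). By name, 62 pseudogenes derive from GAPDH and 13 from PGAM1, and only uniquely aligned reads were counted, so their counts are uncertain where copies are near-identical.

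The lactate dehydrogenase genes LDHA and LDHB both fell in shIMPA1, by 2.02-fold for LDHA and 2.36-fold for LDHB. LDHA (ENSG00000134333, GRCh38 chr11:18394388-18408425, plus strand), the subunit that favours lactate production, had 11951 and 13003 normalized reads in shIMPDH2, 6458 and 6250.03 in shIMPA1 and 12315 and 13357 in shLuc. Both shIMPA1 libraries held about the same level, far below the other 4 libraries, and shIMPDH2 overlapped shLuc. LDHA fell in shIMPA1 (log2 fold change of -1.01 with SE 0.13, adjusted p = 0.000240 in limma) and was higher in shIMPDH2 than in shIMPA1 (log2 fold change of 0.97 with SE 0.13, adjusted p = 0.000351 in limma). In shIMPDH2 against shLuc the log2 fold change of LDHA was -0.04 (95% interval -0.32 to 0.23, adjusted p = 0.855 in limma). LDHB (ENSG00000111716, GRCh38 chr12:21635342-21757857, minus strand), the subunit that favours pyruvate production, had 45809 and 53932 normalized reads in shIMPDH2, 32886 and 26324 in shIMPA1 and 73517 and 65683 in shLuc. The 3 groups did not overlap, with shLuc highest and shIMPA1 lowest. LDHB fell in shIMPA1 (log2 fold change of -1.24 with SE 0.18, adjusted p = 0.000606 in limma) and was higher in shIMPDH2 than in shIMPA1 (log2 fold change of 0.76 with SE 0.18, adjusted p = 0.0108 in limma). In shIMPDH2 against shLuc LDHB was not called (log2 fold change of -0.48, adjusted p = 0.0880 in limma). It was called with only the 2 groups compared (limma adjusted p = 0.0469, with 6382 of 17505 genes called). DESeq2 also called it (adjusted p = 0.0195, with 15.1% of all genes called). Per kilobase, LDHB made up 88.9% and 89.6% of the pair in shIMPDH2, 91.4% and 89.8% in shIMPA1 and 92.6% and 91.1% in shLuc. LDHB thus predominated over LDHA in all 6 libraries. The LDHB call between the knockdowns was lost without shIMPDH2 replicate 2 (then at 0.64 on the log2 scale, limma adjusted p = 0.128).

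PGM1, which interconverts glucose 1-phosphate and glucose 6-phosphate at the link to glycogen, had 655 and 737 normalized reads in shIMPDH2, 674 and 999.97 in shIMPA1 and 659 and 766 in shLuc. It was not called in any comparison, and shIMPA1 replicate 2 was the highest of the 6 libraries. Its exons overlap those of ITGB3BP on the opposite strand. Among other members, the exons of PFKM overlap those of SENP1 and the exons of TPI1 those of SPSB2, on the opposite strand. The exons of PGK1 overlap those of ATP7A on the same strand.

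Of the 6 pentose phosphate genes, RPIA and TKT, both of the non-oxidative branch, fell in shIMPA1, where 16.2% of all genes fell. TKT (ENSG00000163931, GRCh38 chr3:53224707-53256052, minus strand), the transketolase that returns pentoses to glycolysis, had 8418 and 8866 normalized reads in shIMPDH2, 6256 and 5909 in shIMPA1 and 9998 and 10987 in shLuc. Its 3 groups did not overlap, with shLuc highest and shIMPA1 lowest. TKT fell in shIMPA1 (log2 fold change of -0.79 with SE 0.12, adjusted p = 0.000995 in limma) and was higher in shIMPDH2 than in shIMPA1 (log2 fold change of 0.51 with SE 0.12, adjusted p = 0.0123 in limma), and its log2 fold change in shIMPDH2 against shLuc was -0.28 (adjusted p = 0.145 in limma). RPIA (ENSG00000153574, GRCh38 chr2:88691644-88750935, plus strand), the isomerase that forms ribose 5-phosphate, had 889.5 and 948 normalized reads in shIMPDH2, 838 and 826 in shIMPA1 and 1224 and 1349 in shLuc. All 4 knockdown libraries lay below both shLuc libraries. RPIA fell in shIMPA1 (log2 fold change of -0.63 with SE 0.12, adjusted p = 0.00297 in limma) and in shIMPDH2 (log2 fold change of -0.48 with SE 0.12, adjusted p = 0.0189 in limma), with 0.14 (adjusted p = 0.411 in limma) between the knockdowns.

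PGD, which makes NADPH by oxidising 6-phosphogluconate, had 4999.8 and 5493 normalized reads in shIMPDH2, 4271 and 3405 in shIMPA1 and 4398 and 4569.6 in shLuc. It was higher in shIMPDH2 than in shIMPA1 (log2 fold change of 0.46 with SE 0.14, adjusted p = 0.0290 in limma) and was not called against shLuc in shIMPDH2 (log2 fold change of 0.23, adjusted p = 0.282 in limma) or shIMPA1 (log2 fold change of -0.23, adjusted p = 0.218 in limma). PGLS, the lactonase of the oxidative branch, had 1550.3 and 1599 normalized reads in shIMPDH2, 1598 and 1831 in shIMPA1 and 1309.6 and 1411 in shLuc. RPE, the epimerase that forms xylulose 5-phosphate, had 1747 and 1862 normalized reads in shIMPDH2, 1635 and 1653 in shIMPA1 and 2013 and 1765 in shLuc. The exons of RPE overlap those of KANSL1L on the opposite strand, which averaged 1520 normalized reads, and 6 pseudogenes derive from RPE by name. TALDO1, the transaldolase, had 3434 and 3671 normalized reads in shIMPDH2, 3288 and 3057 in shIMPA1 and 3202 and 3729.5 in shLuc. None of PGLS, RPE and TALDO1 was called in any comparison. TKT kept its shIMPA1 call in every leave-one-out fit and lost that between the knockdowns without either shIMPDH2 library (range of log2 fold changes 0.47 to 0.55, limma adjusted p up to 0.128). RPIA lost its call in shIMPA1 without shLuc replicate 2 (range of log2 fold changes -0.70 to -0.56, limma adjusted p up to 0.0515), and in shIMPDH2 without any 1 of the 4 libraries (range of log2 fold changes -0.55 to -0.41, limma adjusted p up to 0.174). PGD lost its call without either shIMPDH2 library or shIMPA1 replicate 2 (range of log2 fold changes 0.29 to 0.62, limma adjusted p up to 0.222) and with only the 2 groups compared (limma adjusted p = 0.0575).

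Other genes of the same pathways were read from a list of 47 symbols, of which 26 were tested. In shIMPDH2, 3 rose and 1 fell, in shIMPA1 2 rose and 7 fell, and between shIMPDH2 and shIMPA1 8 were higher and 3 lower. The median log2 fold changes were 0.12, 0.02 and 0.31 in the same 3 comparisons. The list was called at 15.4%, 34.6% and 42.3%, where all genes were called at 17.0%, 30.2% and 26.1%, so that its shares against shLuc were near those of all genes. PRPS1 and PRPS2 of the ribose phosphate branch fell in shIMPA1. PRPS1, which makes phosphoribosyl pyrophosphate from ribose 5-phosphate, had 2011 and 2261 normalized reads in shIMPDH2, 1069.9 and 1157 in shIMPA1 and 2311 and 2513 in shLuc, and both shIMPA1 libraries lay below the other 4 (log2 fold change of -1.11 with SE 0.12, adjusted p = 0.000102 in limma). Its paralog PRPS2 had 1375 and 1444 normalized reads in shIMPDH2, 1042 and 767 in shIMPA1 and 1841 and 1875 in shLuc and also fell in shIMPA1 (log2 fold change of -1.05 with SE 0.15, adjusted p = 0.000503 in limma). H6PD, the hexose 6-phosphate dehydrogenase of the endoplasmic reticulum, rose in shIMPA1 (log2 fold change of 0.87 with SE 0.13, adjusted p = 0.000818 in limma). G6PC1, the glucose 6-phosphatase of liver, rose in shIMPDH2 (log2 fold change of 1.55 with SE 0.23, adjusted p = 0.00129 in limma) from a low level, with 114 and 121 normalized reads in shIMPDH2, 51.2 and 70.7 in shIMPA1 and 40.5 and 38.5 in shLuc. SLC2A4, the insulin-responsive carrier GLUT4, fell in shIMPDH2 (log2 fold change of -1.45 with SE 0.27, adjusted p = 0.00437 in limma).

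Genes of lactate and pyruvate transport and oxidation gave calls in both directions: of 24 tested among 25, 3 rose and 4 fell in shIMPDH2, 3 rose and 5 fell in shIMPA1, and 6 were higher and 6 lower between shIMPDH2 and shIMPA1. The median log2 fold changes were 0.16, 0.03 and 0.08. The list was called at 29.2%, 33.3% and 50% in these comparisons, against 17.0%, 30.2% and 26.1% of all genes. SLC16A3, the lactate exporter MCT4, had 883 and 1036 normalized reads in shIMPDH2, 1044 and 827 in shIMPA1 and 2729.9 and 2514 in shLuc. It fell in shIMPDH2 (log2 fold change of -1.45 with SE 0.14, adjusted p = 0.000104 in limma) and in shIMPA1 (log2 fold change of -1.49 with SE 0.14, adjusted p = 4.53e-05 in limma), and the knockdowns overlapped each other. PDK4, the kinase that inactivates pyruvate dehydrogenase, fell in shIMPDH2 (log2 fold change of -1.74 with SE 0.14, adjusted p = 2.57e-05 in limma) and rose in shIMPA1 (log2 fold change of 1.31 with SE 0.14, adjusted p = 8.72e-05 in limma). ME1, the cytosolic malic enzyme, fell in shIMPA1 (log2 fold change of -2.17 with SE 0.27, adjusted p = 0.000225 in limma). DLD and PDHB, subunits of the pyruvate dehydrogenase complex, rose in shIMPDH2 (log2 fold change 0.44 and 0.47, limma adjusted p = 0.0313 and 0.0234) and fell in shIMPA1 (-0.52 and -0.42, limma adjusted p = 0.00818 and 0.0249).

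Side branches that draw on glycolytic intermediates also gave calls in both directions: of 26 tested among 29 listed names, 7 rose and 3 fell in shIMPDH2, 5 rose and 7 fell in shIMPA1, and 8 were higher and 2 lower between shIMPDH2 and shIMPA1. The median log2 fold changes were 0.25, -0.06 and 0.23. Of the list 38.5%, 46.2% and 38.5% were called, against 17.0%, 30.2% and 26.1% of all genes. GFPT1, which commits fructose 6-phosphate to hexosamines, had 2529 and 2245 normalized reads in shIMPDH2, 5131 and 5010.2 in shIMPA1 and 1664 and 1826 in shLuc and rose in shIMPA1 (log2 fold change of 1.54 with SE 0.12, adjusted p = 1.10e-05 in limma) and in shIMPDH2 (log2 fold change of 0.45 with SE 0.12, adjusted p = 0.0256 in limma). UAP1, a later step of the same branch, rose in shIMPDH2 (log2 fold change of 0.74 with SE 0.12, adjusted p = 0.00168 in limma). PSPH, which ends serine synthesis from phosphoglycerate, had 5450.3 and 5432 normalized reads in shIMPDH2, 2354 and 1378 in shIMPA1 and 1434 and 1491 in shLuc and rose in shIMPDH2 (log2 fold change of 1.90 with SE 0.20, adjusted p = 0.000147 in limma). PYGB, a glycogen phosphorylase, rose in shIMPA1 (log2 fold change of 1.42 with SE 0.19, adjusted p = 0.000358 in limma), while PYGL, the liver form, fell in shIMPDH2 (log2 fold change of -1.08 with SE 0.17, adjusted p = 0.00175 in limma) and in shIMPA1 (log2 fold change of -0.82 with SE 0.17, adjusted p = 0.00483 in limma). UGP2, which makes UDP-glucose for glycogen, rose in shIMPDH2 (log2 fold change of 0.53, adjusted p = 0.0155 in limma) and fell in shIMPA1 (log2 fold change of -0.53, adjusted p = 0.00997 in limma). GLO1, which detoxifies methylglyoxal, fell in shIMPA1 (log2 fold change of -0.86 with SE 0.14, adjusted p = 0.00126 in limma).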

How the data were processed

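The submitters' processing notes name Trimmomatic 0.36, STAR 2.5.2b, featureCounts (Subread 1.5.2), DESeq2 and the GRCh38 build. Per the labels' protocols, uniquely aligned reads in exons were counted per gene. Neither the annotation release nor the use of strand is given in the sources used here. The deposited signal values behave as read counts that were scaled by the authors with 1 size factor for each library. Division by the value of 1 read gave whole reads, within 0.05 reads, for 99.98% to 100% of genes. The deposited table also holds the authors' log2 fold change, p-value and adjusted p-value columns, for a comparison its header does not name, which were not used here.

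A gene name table gave symbols for 17644 identifiers and GENCODE release 29 for 33 more, and coordinates and exon lengths are from GENCODE 29. Testing required 10 or more normalized reads in 2 or more libraries, which kept 17742 genes and removed 69. All 31 members found passed. One limma fit (version 3.58.1, R 4.3.3) with a mean-variance trend on log2(value + 1) covered 6 libraries with 1 coefficient per group and 3 residual degrees of freedom. Benjamini-Hochberg adjustment ran over all genes tested, and an adjusted p under 0.05 was called. Fold changes on this scale understate those of low genes. Alternatives were other pseudocounts (0.5 and 5), no filter and a filter of 50, TMM scaling, no trend, only the 2 groups compared, a replicate block, edgeR 4.0.16 and DESeq2 1.42.0 on the recovered reads, and leaving out each library (its partner is then assumed to vary like the other groups). On the recovered reads, edgeR called 3010, 5480 and 4551 genes in shIMPDH2, in shIMPA1 and between them. The procedure was tested on simulated data.

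Values in full were given for genes called in at least 1 comparison with an absolute log2 fold change of at least 0.58 there and no overlap between the groups. Of each further list, named genes came from the 4 with the smallest adjusted p in each comparison, except PYGL, which was chosen after its values were seen. The members, lists and tests were chosen with earlier results of these data known.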

Additional observations from a re-analysis of the deposited data

How the results depend on the processing

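With a fit that left out 1 library in turn, whose lone partner is assumed to vary like the other groups, 773 to 998 genes were called in shIMPDH2, against 3018 with all libraries. The range was 2147 to 7940 in shIMPA1, against 5361, and 1430 to 7052 between the knockdowns, against 4627. Members that rose numbered 0 to 2 in shIMPDH2, 2 to 6 in shIMPA1 and 3 to 14 between them, and members that fell 1 to 2, 6 to 15 and 1 to 3 in the same order. With no mean-variance trend 1727, 3508 and 2909 genes were called, and 2 members rose and 2 fell in shIMPDH2 while 6 were higher between the knockdowns. With only the 2 groups compared, 6382 genes were called in shIMPDH2. A filter of 50 left no member lower between the knockdowns, since it removed SLC2A3. Sample numbers did not pair the libraries (correlations of their deviations 0.00027, -0.0488 and 0.0418), and a replicate block ended the calls of ALDOC in shIMPDH2 (log2 fold change -0.39, limma adjusted p = 0.0605), PGAM1 in shIMPA1 (-0.36, 0.0586) and TIGAR between the knockdowns (0.47, 0.0583) and added SLC2A12 in shIMPDH2 (0.54, 0.0316). No called member changed sign under any alternative run. Among members not called, leaving out 1 library gave log2 fold changes in shIMPDH2 of -0.0403 to 0.00696 for PFKL, -0.13 to 0.0813 for PFKM, -0.0956 to 0.0965 for TPI1, -0.0760 to 0.19 for TIGAR, -0.22 to 0.0387 for GAPDH, -0.15 to 0.0170 for PKM, -0.10 to 0.0198 for LDHA, -0.14 to 0.0762 for PGM1, -0.16 to 0.0312 for RPE, -0.0708 to 0.15 for TALDO1, in shIMPA1 of -0.27 to 0.39 for SLC2A3, -0.20 to 0.0964 for HK1, -0.27 to 0.26 for PFKM, -0.11 to 0.27 for PGK1, -0.0754 to 0.49 for PGM1, and between the knockdowns of -0.15 to 0.47 for SLC2A12, -0.28 to 0.25 for PFKM, -0.0591 to 0.34 for PFKP, -0.14 to 0.32 for PFKFB2, -0.14 to 0.24 for PGK1, -0.52 to 0.0434 for PGM1. TPI1 in shIMPDH2 was -0.00365 with DESeq2, and PFKM in shIMPA1 was 0.0113 with edgeR and 0.00596 with DESeq2. These causes were not tested. With the longest transcript as gene length, 82 levels per kilobase moved by more than the SD of the 2 libraries and 11 did not. Depth limited SLC2A3, with 2 reads in shIMPDH2.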

Other observations

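Regulators of glycolytic genes were described from a list of 27 genes, all tested. In shIMPDH2, 2 rose and 4 fell, in shIMPA1 5 rose and 1 fell, and between shIMPDH2 and shIMPA1 1 was higher and 9 were lower, with median log2 fold changes of -0.10, 0.13 and -0.14 in the same 3 comparisons. The list was called at 22.2%, 22.2% and 37.0%, against 17.0%, 30.2% and 26.1% of all genes, so its share in shIMPA1 was below that of all genes. HIF1A, the oxygen-regulated transcription factor subunit, had 3153 and 3037 normalized reads in shIMPDH2, 2301 and 3006 in shIMPA1 and 1849 and 2063 in shLuc and rose in shIMPDH2 (log2 fold change of 0.66 with SE 0.14, adjusted p = 0.00942 in limma) and in shIMPA1 (log2 fold change of 0.43 with SE 0.14, adjusted p = 0.0403 in limma). MYC had 3157 and 3117 normalized reads in shIMPDH2, 6744 and 5323 in shIMPA1 and 4659 and 5206 in shLuc. It fell in shIMPDH2 (log2 fold change of -0.65 with SE 0.14, adjusted p = 0.00915 in limma) and was not called in shIMPA1 (log2 fold change of 0.28, adjusted p = 0.145 in limma). TXNIP, a glucose-induced inhibitor of glucose uptake, had 2919 and 3015 normalized reads in shIMPDH2, 6513 and 4619 in shIMPA1 and 3162 and 3409 in shLuc and rose in shIMPA1 (log2 fold change of 0.74 with SE 0.15, adjusted p = 0.00489 in limma). PRKAA2, a catalytic subunit of AMP-activated kinase, rose in shIMPA1 (log2 fold change of 0.84 with SE 0.12, adjusted p = 0.000726 in limma).

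Hypoxia-induced genes outside glycolysis were called in both directions against shLuc, and those called between the knockdowns were lower in shIMPDH2. Of 21 tested among 23, 2 rose and 5 fell in shIMPDH2, 8 rose and 5 fell in shIMPA1, and none was higher and 8 were lower between shIMPDH2 and shIMPA1. The median log2 fold changes were -0.10, 0.29 and -0.30. Of the list 33.3%, 61.9% and 38.1% were called, against 17.0%, 30.2% and 26.1% of all genes. VEGFA, the angiogenic growth factor, had 2299 and 2388 normalized reads in shIMPDH2, 6141 and 7016 in shIMPA1 and 3193 and 2826 in shLuc and rose in shIMPA1 (log2 fold change of 1.13 with SE 0.12, adjusted p = 0.000111 in limma). MXI1, a MAX-binding repressor, rose in shIMPA1 (log2 fold change of 0.90 with SE 0.13, adjusted p = 0.000651 in limma). ADM, the peptide adrenomedullin, had 125 and 139 normalized reads in shIMPDH2, 141 and 121 in shIMPA1 and 1649 and 1743 in shLuc and fell in shIMPDH2 (log2 fold change of -3.67 with SE 0.15, adjusted p = 2.31e-07 in limma) and in shIMPA1 (log2 fold change of -3.69 with SE 0.15, adjusted p = 9.78e-08 in limma). LOX, a collagen cross-linking oxidase, also fell in shIMPDH2 (log2 fold change of -1.64 with SE 0.27, adjusted p = 0.00219 in limma) and in shIMPA1 (log2 fold change of -1.73 with SE 0.27, adjusted p = 0.000926 in limma).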
